A study of Mus musculus with 6 samples.

Results

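The CC chemokine genes Ccl2, Ccl3, Ccl4, Ccl5, Ccl6, Ccl7, Ccl8, Ccl9, Ccl12 and Ccl20 were followed in pancreatic tumour cells of mice with and without Msi1, the gene of the RNA-binding protein Musashi 1. The 10 genes were listed by name. Each was represented by its Affymetrix probe set of highest mean over the arrays, among the 12 probe sets that the platform annotation assigns to 1 of these symbols alone, out of 45037 probe sets tested and 18193 named genes. One array each was run for 3 samples of genotype Msi1 -/- and for 3 samples whose genotype is given as wt. All 6 came from C57BL/6 mice at 11 weeks of age, and the labels give every sample the tumour alleles KeasG12D/+ (spelt so there), p53f/f, a conditional p53 allele, and ptf1a-Cre, so wt stands for intact Msi1 in a tumour-bearing mouse. The Cre is driven from Ptf1a, a gene of pancreatic progenitor and acinar cells, which places the tumour alleles' recombination in the pancreatic epithelium, while the labels do not say how the Msi1 allele was made. Per the labels, replicates 1, 2 and 3 of each genotype came from mice numbered 3, 4 and 6, so each array of a genotype had a mouse number of its own; whether mice of the same number in both genotypes were related is not stated.

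CC chemokines are small secreted proteins that attract leukocytes through receptors of the CCR family. Ccl2, Ccl7 and Ccl12 are ligands of Ccr2, the receptor that draws inflammatory monocytes into tissue. Ccl8 is made by macrophages and in the mouse acts mainly through Ccr8. Ccl3, Ccl4 and Ccl5 attract T cells, NK cells and macrophages, Ccl6 and Ccl9 are Ccr1 ligands of rodents, and Ccl20 is the ligand of Ccr6 on dendritic, B and T helper cells. In pancreatic tumours such ligands are known for recruiting monocytes and macrophages.

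The arrays were close in scale, with a median intensity between 159.2 and 164.3 in each, and their number limits the precision. Intensities are linear values on which the authors had run the GCRMA background correction and normalization. The brightest Msi1 probe set read between 127 and 168 in Msi1 -/- arrays and between 144 and 257 in wt arrays, so it did not separate the genotypes, and where it lies relative to the deleted part was not known. Array background, taken as the 95th percentile of 81 olfactory, vomeronasal and taste receptor probe sets, lay between 163 and 191. The Msi1 probe set lay above its array's background only in Msi1 -/- replicate 2 and wt replicate 3, so it was near the floor in both genotypes. One array stood apart in sex-linked transcripts: Xist read between 131 and 186 in Msi1 -/- arrays, and 376, 387 and 6226 in wt replicates 1, 2 and 3. Eif2s3y read 88 in wt replicate 3 and between 716 and 944 in the other arrays, so the genotypes were not matched in these transcripts. Results are therefore also given without wt replicate 3. The arrays held more than epithelial RNA. All 10 epithelial markers, such as Krt19 and Epcam, were above background on all 6 arrays, and so were all 13 measured macrophage and monocyte markers and all 10 fibroblast markers. In such bulk RNA, fewer cells of a type and less RNA per cell cannot be told apart.

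Of the 10 genes, 9 lie on chromosome 11 in the RefSeq gene table of GRCm38.p6, in the order Ccl2, Ccl7, Ccl12 and Ccl8 and then Ccl5, Ccl9, Ccl6, Ccl3 and Ccl4, while Ccl20 lies on chromosome 1. RefSeq promoter sequences matched 6 of the 10 genes. The 250 bases before the start are shown for a nearby pair of each chromosome 11 group, because Ccl12 and Ccl8 had higher and Ccl9 and Ccl6 lower means in Msi1 -/- arrays. Capitals mark matches, on either strand, to TATAAA (the TATA box) or to TGANTCA (the AP-1 site loosened to any middle base). They also mark matches to TTCNNNGAA (the site of STAT factors) or to the NF-kB consensus.
Ccl12, chr11:82101595-82101844, + strand: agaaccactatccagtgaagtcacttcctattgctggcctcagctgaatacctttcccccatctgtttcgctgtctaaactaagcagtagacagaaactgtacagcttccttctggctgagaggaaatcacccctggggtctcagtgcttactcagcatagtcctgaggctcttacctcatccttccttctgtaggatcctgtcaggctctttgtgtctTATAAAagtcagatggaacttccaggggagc
Ccl8, chr11:82114935-82115184, + strand: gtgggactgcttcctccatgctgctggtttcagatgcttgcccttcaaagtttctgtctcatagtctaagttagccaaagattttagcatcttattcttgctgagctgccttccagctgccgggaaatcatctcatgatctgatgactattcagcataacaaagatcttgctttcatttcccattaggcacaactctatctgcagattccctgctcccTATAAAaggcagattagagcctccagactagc
Ccl9, chr11:83578637-83578886, - strand: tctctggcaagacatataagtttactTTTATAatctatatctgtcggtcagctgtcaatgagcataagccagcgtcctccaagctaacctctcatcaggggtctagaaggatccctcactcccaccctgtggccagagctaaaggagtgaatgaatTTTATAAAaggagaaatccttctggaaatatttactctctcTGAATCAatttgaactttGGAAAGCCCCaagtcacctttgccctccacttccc
Ccl6, chr11:83593088-83593337, - strand: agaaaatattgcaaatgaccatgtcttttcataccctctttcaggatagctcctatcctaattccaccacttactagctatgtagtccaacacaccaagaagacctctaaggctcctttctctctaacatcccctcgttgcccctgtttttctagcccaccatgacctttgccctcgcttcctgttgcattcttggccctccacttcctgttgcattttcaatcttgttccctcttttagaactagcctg
Ccl12 and Ccl8 each had 1 match to TATAAA, starting 31 and 32 bases before the start. A match to TATAAA was present in 3 of the 6 members' windows and in 12.4% of all 32851 windows of this length, at any position. In the Ccl9 window the matches lay further from the start, between 94 and 87 and between 224 and 219 bases before it. The Ccl9 window also held TGANTCA (here TGAATCA), found in 6.75% of all windows, and a reverse-strand match to the NF-kB consensus, found in 7.25%. The 2 Ccl9 matches to TATAAA nearest the start overlap each other. Ccl20 was the other member with an NF-kB match, between 80 and 71 bases before its start. No match to TTCNNNGAA lay in the 6 windows (7.02% of all windows). In global alignments the Ccl12 and Ccl8 windows shared 57.5% of aligned columns, against 47.5% to 54.2% for the other 14 pairs.

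Among the 10 genes, 8 had a higher mean log2 value in Msi1 -/- than in wt arrays, with the largest differences for Ccl12 and Ccl8. The other 2, Ccl6 and Ccl9, had a lower one. No member passed the test: 0 of 10 had an adjusted p under 0.05 in limma with Benjamini-Hochberg adjustment over all probe sets, as did 0 of 45037 probe sets (0%), and every member's adjusted p was 0.9997. The comparison asked whether tumours without Msi1 differ in these transcripts, and the values that follow are therefore descriptions. Of all probe sets, 51.4% had a higher mean in Msi1 -/- arrays. The median log2 difference was 0.25 over the 10 genes and 0.0023 over all probe sets. At an unadjusted p under 0.05 there was 1 member of 10, Ccl12, beside 3.01% of all probe sets in either direction and 1.46% that were higher in Msi1 -/- arrays. The groups did not overlap for the same 1 member, beside 7.79% of all probe sets in either direction and 4.08% that were higher. Without wt replicate 1 the count with a higher mean was 6 and the median 0.12, and without wt replicate 3 they were 8 and 0.42.

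**Figure D1:**
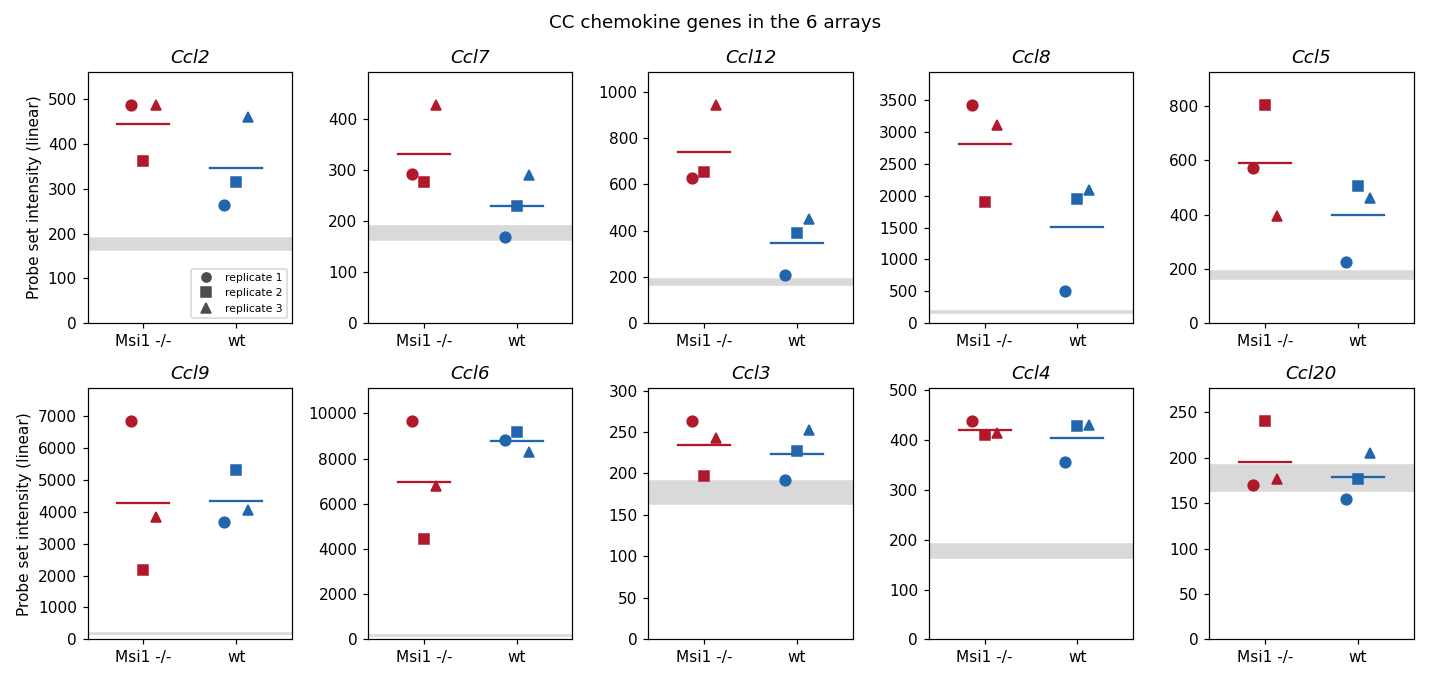
Linear probe set intensity of the 10 genes in each array, Msi1 -/- on the left and wt on the right of each panel; symbols give the replicate number, horizontal lines the group means (n = 3 each) and the grey band the range of array background. Only Ccl12 has no overlap between the groups, and wt replicate 1 is the lowest array for 8 of the 10 genes.

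The Ccr2 ligand Ccl12 (probe set 1419282_at), which attracts monocytes in the mouse, read 627, 653 and 945 in Msi1 -/- replicates 1, 2 and 3, against 206, 388 and 450.2 in wt replicates 1, 2 and 3. All 3 Msi1 -/- arrays lay above all 3 wt arrays. The means were 742 ± 176 in Msi1 -/- and 348 ± 127 in wt arrays (SD, n = 3 each), a log2 difference of 1.14 ± 0.30 (SE) with a 95% interval of 0.44 to 1.84. The exact two-sided permutation p was 0.1, the smallest that 20 assignments of 3 and 3 arrays allow. Leaving out 1 array at a time, the log2 difference ran between 0.80 and 1.36. Its direction could not change in these fits, because the groups did not overlap.

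Ccl7 (1421228_at), a further Ccr2 ligand, read 292, 277 and 429 in Msi1 -/- arrays, against 169, 230.2 and 291 in wt arrays. The ranges overlapped, with wt replicate 3 above Msi1 -/- replicate 2 and close to replicate 1. Its log2 difference was 0.54 ± 0.23 (SE), with a 95% interval of -0.0047 to 1.08 and an exact two-sided permutation p of 0.2. Ccl2 (1420380_at), the monocyte chemokine most often studied in tumours, read 488, 362 and 488 in Msi1 -/- arrays, against 263, 315 and 461 in wt arrays. Here wt replicate 3 lay above Msi1 -/- replicate 2 and the other wt arrays below all Msi1 -/- arrays. The log2 difference of Ccl2 was 0.39 ± 0.22 (SE), with a 95% interval of -0.12 to 0.90 and an exact two-sided permutation p of 0.2. Both differences depended on single arrays: without wt replicate 1 they were 0.33 for Ccl7 and 0.21 for Ccl2, without Msi1 -/- replicate 3 Ccl7 was 0.34, and without wt replicate 3 Ccl2 was 0.62.

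Ccl8 (1419684_at), a macrophage product, read 3429.7, 1896 and 3113 in Msi1 -/- arrays, against 499.8, 1942 and 2084 in wt arrays. Msi1 -/- replicates 1 and 3 lay above every wt array, Msi1 -/- replicate 2 lay just below wt replicates 2 and 3, and wt replicate 1 lay far below the rest. The means were 2813 ± 809.9 in Msi1 -/- and 1509 ± 876 in wt arrays (SD, n = 3 each). The log2 difference was 1.11 ± 0.54 (SE), with a 95% interval of -0.15 to 2.36 and an exact two-sided permutation p of 0.3. Without wt replicate 1 the Ccl8 difference was 0.44, and with array weights it was 0.67.

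**Figure D2:**
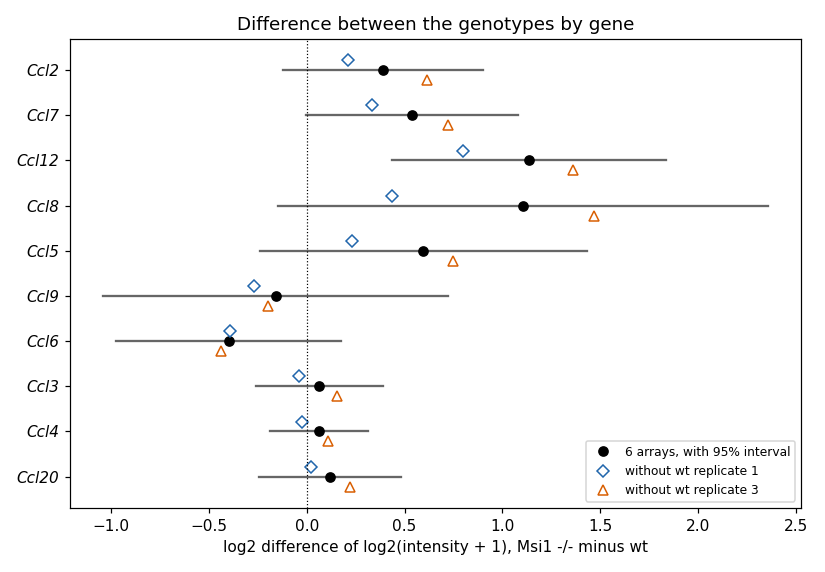
Log2 difference of log2(intensity + 1), Msi1 -/- minus wt, for each gene: filled circles with 95% intervals use all 6 arrays, open diamonds leave out wt replicate 1 and open triangles wt replicate 3. The interval lies above 0 for Ccl12 alone, and the diamonds lie nearer 0 than the circles for Ccl8, Ccl5, Ccl12, Ccl2 and Ccl7.

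Ccl5 (1418126_at), a T cell and macrophage chemokine, read 573.5, 806 and 394 in Msi1 -/- arrays, against 225, 505 and 463 in wt arrays. Msi1 -/- replicate 3 lay below wt replicates 2 and 3, and the other Msi1 -/- arrays lay above all wt arrays. The log2 difference was 0.60 ± 0.36 (SE), with a 95% interval of -0.24 to 1.43 and an exact two-sided permutation p of 0.4. Without wt replicate 1 it was 0.23, without Msi1 -/- replicate 2 it was 0.34 and with array weights 0.33. The macrophage inflammatory protein genes Ccl3 and Ccl4 differed little. Ccl3 (1419561_at) read 263, 197 and 243 in Msi1 -/- arrays, against 193, 227 and 252 in wt arrays, and the ranges overlapped almost wholly. Ccl4 (1421578_at) read 439, 409.6 and 415 in Msi1 -/- arrays, against 357, 428 and 429.8 in wt arrays. The log2 differences were 0.06 ± 0.14 for Ccl3 and 0.06 ± 0.11 for Ccl4 (SE), with 95% intervals of -0.26 to 0.39 and -0.19 to 0.31. With 1 array left out, Ccl3 ran between -0.040 and 0.18 and Ccl4 between -0.026 and 0.11, both lowest without wt replicate 1.

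The Ccr1 ligands Ccl6 and Ccl9 had lower means in Msi1 -/- arrays and a wide spread among them. Ccl6 (1417266_at) read 9664, 4454 and 6790.0 in Msi1 -/- arrays, against 8828, 9153 and 8286 in wt arrays. The 3 wt arrays lay close together, while Msi1 -/- replicate 1 lay above and replicates 2 and 3 below all of them, with an SD of 2609.6 in Msi1 -/- and 438 in wt arrays (n = 3 each). The log2 difference of Ccl6 was -0.40 ± 0.25 (SE), with a 95% interval of -0.97 to 0.18 and an exact two-sided permutation p of 0.4. It was -0.67 without Msi1 -/- replicate 1 and -0.11 without Msi1 -/- replicate 2. Its other probe set, 1420249_s_at, gave the same order of Msi1 -/- arrays at 6871, 1351 and 3017, against 4861, 4959.7 and 4353 in wt arrays, a log2 difference of -0.64 ± 0.50 (SE). Ccl9 (1417936_at) read 6846, 2167 and 3845 in Msi1 -/- arrays, against 3685, 5315 and 4049 in wt arrays. As with Ccl6, the highest and the lowest Ccl9 values were both in Msi1 -/- arrays. The log2 difference of Ccl9 was -0.16 ± 0.38 (SE), with a 95% interval of -1.04 to 0.72, and its second probe set, 1448898_at, gave 0.03 ± 0.52 (SE). Without Msi1 -/- replicate 1 the Ccl9 difference was -0.57, without Msi1 -/- replicate 2 it was 0.26, without wt replicate 1 it was -0.27 and without wt replicate 2 it was -0.0050.

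Ccl20 (1422029_at), the Ccr6 ligand of epithelial surfaces, was dim, with 169.8, 240.5 and 176 in Msi1 -/- arrays, against 155, 176 and 205 in wt arrays. It lay above its array's background on 4 of 6 arrays, whereas the other 9 genes did so on all 6. The log2 difference was 0.12 ± 0.16 (SE), with a 95% interval of -0.24 to 0.48, and it ran between -0.039 without Msi1 -/- replicate 2 and 0.22 without wt replicate 3.

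Across the arrays the genes varied in distinct orders. Msi1 -/- replicate 1 was the highest array for 5 genes, replicate 3 for 3 and replicate 2 for 2, whereas wt replicate 1 was the lowest for 8 and Msi1 -/- replicate 2 for 2, Ccl6 and Ccl9. For the 4 neighbours Ccl2, Ccl7, Ccl12 and Ccl8, the 6 pairwise Pearson r over the 6 arrays lay between 0.82 and 0.95. Without wt replicate 1, the lowest array for all 4, the same 6 values lay between 0.58 and 0.88 over 5 arrays. Ccl7 and Ccl12 were the closest pair in both cases, at 0.95 and, without that array, 0.88, while Ccl12 and Ccl8 had 0.89 and 0.63. Among Ccl5, Ccl9, Ccl6, Ccl3 and Ccl4 the 10 values ran between -0.52 and 0.89, and between -0.67 and 0.96 without wt replicate 1, so genes of that group did not share 1 pattern. Ccl6 and Ccl9 were each other's nearest member at 0.89 (0.96 without wt replicate 1), and both were least like Ccl20, at -0.80 and -0.67. Ccl8 and Ccl4 had an r of 0.92, but 0.35 without wt replicate 1. These are descriptions over 6 arrays that share their normalization.

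**Figure D3:**
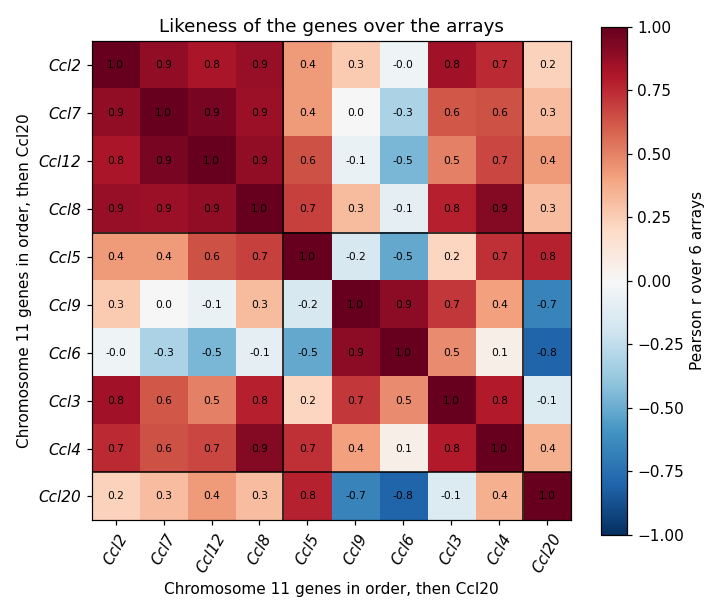
Pearson r of log2(intensity + 1) over the 6 arrays for each pair of genes, with the chromosome 11 genes in order and Ccl20 last; lines part the groups of neighbours. The block of Ccl2, Ccl7, Ccl12 and Ccl8 lies between 0.82 and 0.95 (0.58 and 0.88 without wt replicate 1), and pairs outside it also reach that range, such as Ccl8 and Ccl4 at 0.92 and Ccl6 and Ccl9 at 0.89.

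Timp1, an inhibitor of matrix metalloproteinases, had the pattern most like the mean of the 10 members, each centred on its own mean. Its r was 0.99 over 6 arrays, the highest among 9617 genes with a mean log2 value of at least 8. The mean of the members was lowest in wt replicate 1, at -0.60, and was not a pattern that all members shared. Ccl8 followed it most closely (r = 0.99), and Ccl6, Ccl20 and Ccl9 least (-0.03, 0.27 and 0.38). Timp1 read 6594, 4752 and 5880.2 in Msi1 -/- arrays, against 2519, 5058 and 5174 in wt arrays, so it shared the low value of wt replicate 1. The next were the kinase gene Jak2, the lysyl hydroxylase gene Plod3, the fucosyltransferase gene Pofut2, the secreted protein gene Cthrc1 and Dpysl2, each with an r of 0.98 and its lowest value in wt replicate 1.

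Other CC ligands were mostly dim. Of 8 measured among 11 listed, all 8 had higher means in Msi1 -/- arrays (51.4% of all probe sets did). Their median log2 difference was 0.10, with 0 past an adjusted p of 0.05 and 3 above background on all arrays. Without wt replicate 1 the median was 0.09. In that fit Ccl17, Ccl24 and Ccl25, named after their values were seen, had lower means (-0.40, -0.13 and -0.0027). The rest kept higher means. Ccl11, the eosinophil chemokine that lies between Ccl7 and Ccl12, read 406, 293 and 425 in Msi1 -/- arrays, against 261, 241 and 356 in wt arrays. The log2 difference of Ccl11 was 0.39 ± 0.19 (SE), and the groups overlapped in wt replicate 3. Ccl22, a macrophage and dendritic cell ligand of Ccr4, differed by 0.31 ± 0.25 (SE), and by 0.06 without wt replicate 1. Ccl1 and Ccl27a, at 0.11 ± 0.06 and 0.12 ± 0.11 (SE), were at or below background on at least 5 arrays. In a list of 16 CXC and other chemokine ligands, 11 had higher means and the median log2 difference was 0.12, and 0.02 without wt replicate 1 and 0.20 without wt replicate 3.

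Ccr2, the receptor of Ccl2, Ccl7 and Ccl12, read 1445, 1022 and 1412.5 in Msi1 -/- arrays, against 669, 1477 and 1077 in wt arrays. The groups overlapped, and its log2 difference was 0.32 ± 0.29 (SE), and 0.02 without wt replicate 1. Ccr1, the receptor of Ccl6 and Ccl9, was added after its values were seen. It read 1595, 656 and 1057 in Msi1 -/- arrays, against 1029, 1181 and 1083 in wt arrays, the same order of Msi1 -/- arrays as those ligands. Its log2 difference was -0.08 ± 0.29 (SE). Ccr6, the receptor of Ccl20, differed by 0.42 ± 0.16 (SE) and overlapped. It was dim, with 143, 184 and 166 in wt arrays, and lay above background on 5 of 6 arrays. Ccr7, the homing receptor of T cells and mature dendritic cells, read 300.3, 350.2 and 218 in Msi1 -/- arrays, against 123, 204 and 215 in wt arrays. In wt replicate 1 Ccr7 was below background. The groups did not overlap for Ccr7, by a margin of Msi1 -/- replicate 3 over wt replicate 3 alone, and the log2 difference was 0.69 ± 0.25 (SE), and 0.44 without wt replicate 1. Of 9 measured CC receptors, 6 had higher and 3 lower means, 0 passed an adjusted p of 0.05 and the median was 0.05. Ccr8, the receptor of Ccl8, was below background on all 6 arrays, as were Ccr3 and Ccr4. The 4 atypical and related receptors Ackr1, Ackr2, Ackr4 and Ccrl2 all had slightly lower means, between -0.15 and -0.0029 on the log2 scale, with a median of -0.03 that was 0.04 without wt replicate 1.

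**Figure D4:**
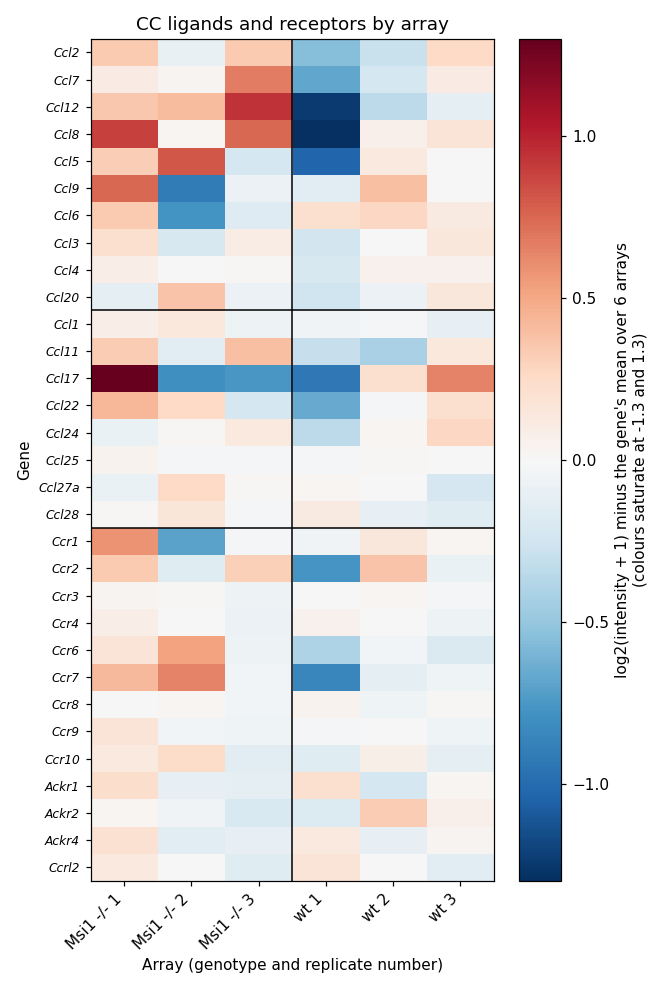
Log2(intensity + 1) of each gene minus its mean over the 6 arrays, in 3 blocks from the top: the 10 genes, the other CC ligands and the receptors, with Msi1 -/- arrays left of wt arrays. Wt replicate 1 is low for Ccl12, Ccl8, Ccl5, Ccr2 and Ccr7, and Msi1 -/- replicate 2 is low for Ccl9, Ccl6 and Ccr1.

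NF-kB is the main inducer of several CC chemokine genes, and its subunit, feedback and cytokine genes gave no common direction. Of 11 measured NF-kB and inflammatory inducer genes, 6 had higher and 5 lower means in Msi1 -/- arrays, with a median log2 difference of 0.0061 (-0.05 without wt replicate 1 and 0.15 without wt replicate 3) and 0 past an adjusted p of 0.05. The subunit gene Nfkb2 differed by 0.21 ± 0.18, the cytokine genes Tnf and Il1b by 0.14 ± 0.15 and 0.33 ± 0.31 and Il1a by -0.25 ± 0.28 (SE). Without wt replicate 1 Nfkb2 was 0.09, Tnf -0.01 and Il1b -0.06, and without wt replicate 3 Il1a was 0.08.

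Markers of the cells that make or follow these chemokines varied beside them. Macrophage and monocyte markers had higher means for 10 of 13, with a median log2 difference of 0.06, and their summed intensity lay between 37135 and 62119 in Msi1 -/- arrays, against 42027 and 52314 in wt arrays. Ms4a7, a macrophage membrane protein gene, differed by 0.91 ± 0.35, the fractalkine receptor gene Cx3cr1 by 0.49 ± 0.34, Adgre1 by 0.20 ± 0.17 and the mannose receptor gene Mrc1 by -0.29 ± 0.39 (SE). Without wt replicate 1 Ms4a7 differed by 0.50 and Cx3cr1 by 0.19. Dendritic cell markers had higher means for 7 of 8, with a median of 0.23. Of these 8, 3 were above background on all arrays and 1 on none. Their sums lay between 5228 and 6470.4 in Msi1 -/- arrays, against 3677 and 6133 in wt arrays. In the T and NK cell list 13 of 13 markers had higher means, with a median of 0.15 and sums between 2188 and 2793 in Msi1 -/- arrays, against 1795 and 2155 in wt arrays; 5 of them were below background on every array. B and plasma cell markers had higher means for 6 of 7, with a median of 0.32, and 3 of the 7 were above background on all arrays. Their sums lay between 5775 and 13085 in Msi1 -/- arrays, against 7166 and 9379.5 in wt arrays. Granulocyte markers had higher means for 8 of 11 (median 0.08), fibroblast markers for 6 of 10 (median 0.01), endothelial markers for 8 of 8 (median 0.28) and epithelial markers for 5 of 10 (median 0.00047). Acinar markers had the largest shift, with higher means for 0 of 8 and a median of -1.42. That median was -1.57 without wt replicate 1 and -1.49 without wt replicate 3. Acinar sums lay between 12391 and 34734 in Msi1 -/- arrays, against 35922 and 55334 in wt arrays, without overlap. Taken singly, 1 of the 8 markers, Cela3b, did not overlap between the groups, beside 7.79% of all probe sets in either direction. Of the 8 acinar markers, 7 had an unadjusted p under 0.05 in limma, beside 3.01% of all probe sets. No marker was at 0 on any array, and 0 markers passed an adjusted p of 0.05 in any of these lists. Wt replicate 1, low for 8 of the 10 chemokine genes, also had the lowest mean log2 value of the macrophage, dendritic, T and NK, B cell and endothelial lists, but not of the epithelial, granulocyte, fibroblast or acinar lists. Without that array the median log2 difference was -0.016 for the macrophage list, 0.09 for the dendritic, 0.09 for the T and NK cell, 0.15 for the B and plasma cell and 0.15 for the endothelial list, and it was 0.04 for fibroblasts and -0.01 for epithelial markers. Without wt replicate 3 the macrophage median was 0.0050, the fibroblast median -0.01 and the epithelial median 0.05. Over the 6 arrays Ccl5 followed the mean of the T and NK cell list (r = 0.93) and Ccl9 those of the fibroblast (0.95) and macrophage (0.86) lists. Ccl12 had an r of 0.71 with the T and NK cell list, 0.66 with the endothelial, 0.64 with the dendritic and 0.33 with the macrophage list. For Ccl8 they were 0.86 with the dendritic, 0.85 with the endothelial and 0.64 with the macrophage list. With the B and plasma cell and the T and NK cell lists, Ccl20 had 0.87 and 0.85 and Ccl6 -0.85 and -0.77. All these r include wt replicate 1. The part of these cell types in the chemokine values was not tested.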

How the data were processed

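Total RNA of 6 samples (6 ug each) was turned into biotin-labelled cRNA and hybridised to Affymetrix mouse arrays, 1 per sample, per the labels' protocols. The authors deposited 1 table of linear probe set intensity values, made with GCRMA per the submitters' processing notes; its version, settings and any later rescaling are not given in the sources used here. Of 45101 probe sets, 64 controls were left out. Of the rest, 34945 had 1 platform symbol, 932 several and 9160 none, and 34754 were matched to RefSeq GRCm38.p6 by Entrez identifier. Values were analysed as log2(intensity + 1), which understates differences of dim transcripts, by lmFit and eBayes (trend = TRUE) of limma 3.58.1, run in R 4.3.3, over all probe sets, genotype as the only term and Benjamini-Hochberg adjustment; SE is limma's. The fit was tested on simulated data. Exact two-sided permutation tests used scipy 1.17.1. Of each further list up to 4 genes were named by smallest unadjusted p, and some others after their values were seen. The members and gene lists were chosen with earlier results of these data known. List genes without a probe set of their own were not analysed here. Alternatives changed the filter, prior variance, normalization, array weights, replicate block, pseudocount (16), the probe set per gene and the arrays.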

Additional observations from a re-analysis of the deposited data

How the results depend on the processing

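Across 17 alternatives no chemokine gene passed an adjusted p of 0.05 in limma; the smallest was 0.81. Of 168 values, 56 equalled the reported one because the alternative leaves a difference of means as it is (filters, prior variance, replicate block, choice of probe set), and of the other 112 values 105 kept their direction. With array weights Ccl3 was -0.035 and Ccl4 -0.0050 on the log2 scale. With 1 array left out, Ccl3 ran between -0.040 (without wt replicate 1) and 0.18 and was -0.026 without Msi1 -/- replicate 1, Ccl4 between -0.026 (without wt replicate 1) and 0.11, Ccl9 between -0.57 and 0.26 (without Msi1 -/- replicate 2) and Ccl20 between -0.039 (without Msi1 -/- replicate 2) and 0.22; the cause was not tested. Leaving out 1 array at a time, the median over the 10 genes ran between 0.12 and 0.42, the count with a higher mean between 6 and 8, and the probe sets past the threshold between 0 and 1. That 1 was Ighm, named after its value was seen (1427351_s_at, log2 difference 1.89, adjusted p = 0.0426 without Msi1 -/- replicate 1). Probe sets at an unadjusted p under 0.05 numbered 1355, with 0 past the adjusted threshold also without a trend in the prior variance. The unadjusted count was 546 with the filter at 8, 2153 with array weights, 605 with probe sets averaged per gene, and 886 to 2723 with 1 array left out. Filtering at 8 removed Ccl3 and Ccl20. Same-numbered arrays did not deviate together in every pair (r of deviations 0.17, -0.09 and 0.28), and with the replicate block 2120 probe sets had an unadjusted p under 0.05 and 0 an adjusted one; 4 of 6 arrays were most like their own number. The probe set without a suffix was the main one for every chemokine gene. Signal over background limits Ccl20.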
